A study of Homo sapiens with 4 samples.

Results

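The 60 genes described here build the machinery that moves chromosomes in mitosis, and they were measured in hypoxic PLC/PRF/5 cells with and without knockdown of USP22. The genes were chosen by name, as known parts of the centromere, the kinetochore, the spindle checkpoint, the chromosome passenger complex, condensin and the spindle. Earlier results of these data were known when the genes were chosen, so their shares below describe the list and test nothing. The count table held 55 of the 60, of which 53 passed the filter on low counts and were tested, among 12337 tested transcripts in all. PLC/PRF/5 is a human hepatocellular carcinoma line. Lentivirus was used to interfere with USP22, a ubiquitin protease of the SAGA coactivator complex. The 2 control libraries (labelled NC) and the 2 knockdown libraries (labelled shUSP22) all came from cells held for 48 h in 1% O2 and 5% CO2, so hypoxia was shared by both groups. The labels give 1 cell line and do not say whether the replicates were separate cultures, so the p-values measure only the spread between these libraries, which may be technical.

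In mitosis each chromosome is held at its centromere, which is marked by the histone variant CENPA. A set of inner centromere proteins bound to that chromatin carries the kinetochore, and the outer kinetochore, through the NDC80 complex, grips the microtubules of the spindle. Kinetochores without microtubules keep the spindle checkpoint active, which restrains CDC20, the activator of the anaphase-promoting complex, until every chromosome is attached. Condensin and topoisomerase II compact and untangle the chromosomes, and the chromosome passenger complex corrects faulty attachments. Most of these genes are transcribed late in the cell cycle. Their promoters often hold a cell cycle genes homology region (CHR), whose core reads TTTGAA or, in a variant, TTTAAA, which the MuvB complexes bind, as well as CCAAT boxes, which NF-Y binds.

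Promoters of members that rose are shown first because many of them hold those letters. A RefSeq table (build GRCh38.p14, 250 bases before to 50 after the start of the gene) held a window of 300 bases for 49 of the 60 members. The search covered both strands and allowed overlaps between TTTGAA, its variant TTTAAA and the box CCAAT. A CHR core of either spelling was found in 15 of the 17 matched members that rose (88.2%) and in 17 of 27 matched members that were tested and did not pass (63.0%). The same search found it in 15.7% of the windows of genes with a tested transcript (8311) and in 24.3% of all windows of the table (27303). CCAAT was found in 12 of the 17 (70.6%), in 16 of the 27 (59.3%) and in 36.7% of the windows of tested genes. Among the members that rose NCAPD3 held neither kind of letters, SKA2 held no CHR core, and BUB1B, NDC80, SMC4 and NUF2 held no CCAAT. Both kinds of letters were in 11 of the 17, 10 of the 27 and 6.53% of the windows of tested genes. Among the windows of all genes with a transcript that rose (812), 23.5% held a CHR core, 42.0% CCAAT and 11.5% both. Below are the windows of the 5 most highly counted members that rose and hold both, read 5′ to 3′ on the strand of the gene, with every CHR core and every CCAAT box, on either strand, in capitals. They lie at chr17:40417847-40418146 (TOP2A, minus strand), chr1:214602945-214603244 (CENPF, plus strand), chr12:6493852-6494151 (NCAPD2, plus strand), chr1:43358731-43359030 (CDC20, plus strand) and chr16:23678639-23678938 (PLK1, plus strand).
TOP2A promoter: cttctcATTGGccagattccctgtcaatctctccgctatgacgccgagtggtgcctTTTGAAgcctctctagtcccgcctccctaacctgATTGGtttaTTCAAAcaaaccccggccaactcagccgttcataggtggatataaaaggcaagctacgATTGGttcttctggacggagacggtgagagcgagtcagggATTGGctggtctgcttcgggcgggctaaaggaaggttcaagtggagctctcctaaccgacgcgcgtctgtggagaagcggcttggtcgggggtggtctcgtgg
CENPF promoter: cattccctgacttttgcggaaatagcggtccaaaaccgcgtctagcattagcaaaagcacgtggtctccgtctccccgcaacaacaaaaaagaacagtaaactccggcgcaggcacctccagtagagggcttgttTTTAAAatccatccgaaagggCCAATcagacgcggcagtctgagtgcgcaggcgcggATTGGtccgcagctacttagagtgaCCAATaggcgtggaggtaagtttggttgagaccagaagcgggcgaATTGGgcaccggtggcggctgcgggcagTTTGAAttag
NCAPD2 promoter: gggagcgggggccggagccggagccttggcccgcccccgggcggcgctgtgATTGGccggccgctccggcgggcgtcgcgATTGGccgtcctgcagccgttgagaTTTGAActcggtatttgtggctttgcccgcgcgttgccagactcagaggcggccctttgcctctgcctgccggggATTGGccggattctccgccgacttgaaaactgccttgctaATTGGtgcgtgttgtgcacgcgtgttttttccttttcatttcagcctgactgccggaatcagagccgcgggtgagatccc
CDC20 promoter: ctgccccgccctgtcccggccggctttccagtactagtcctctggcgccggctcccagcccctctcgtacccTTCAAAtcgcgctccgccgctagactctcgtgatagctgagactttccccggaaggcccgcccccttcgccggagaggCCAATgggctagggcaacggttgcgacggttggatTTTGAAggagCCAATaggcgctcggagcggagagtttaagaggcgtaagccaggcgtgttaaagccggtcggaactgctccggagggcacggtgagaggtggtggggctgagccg
PLK1 promoter: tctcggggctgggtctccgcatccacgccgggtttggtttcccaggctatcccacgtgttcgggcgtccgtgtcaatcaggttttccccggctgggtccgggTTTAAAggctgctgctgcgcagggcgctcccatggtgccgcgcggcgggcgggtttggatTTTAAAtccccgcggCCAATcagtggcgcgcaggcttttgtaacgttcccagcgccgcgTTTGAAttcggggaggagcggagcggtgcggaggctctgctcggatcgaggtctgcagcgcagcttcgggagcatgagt
In PLK1 the TTTGAA lies 29 bases before the start and the CCAAT 73 bases before it. In CDC20 the nearest TTTGAA lies 65 bases and the nearest CCAAT 55 bases before the start. TOP2A, CENPF and NCAPD2 each hold 4 CCAAT in either orientation. Counted from the start, TTTGAA lies at −194 and −151 in TOP2A and at −145 in NCAPD2. In CENPF it lies after the start, at 41, and TTTAAA lies at −115. A match of letters is a description and not a measured binding site.

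USP22 itself was lower in both knockdown libraries. It had 2937 and 2573 CPM (the count of a transcript relative to the TMM-normalized total of its library) in the control libraries and 360 and 447 CPM in the knockdown libraries, a log2 fold change of −2.77 ± 0.17 (SE). Library totals ran from 15027209 to 17194929 counts. All 18 hepatocyte markers of a list had a row, and their summed level was 31490 to 32698 CPM in control and 40531 to 49156 CPM in knockdown libraries. Of these 9 rose (50%, against 8.49% of all tested transcripts), TAT by 1.94 and FGB by 1.19 on the log2 scale. AHSG was the 1 that fell (−0.92), where 10.2% of all tested transcripts fell, and it did not pass without control replicate 2. The median log2 fold change of the 18 was 0.78. Of 20 markers of other cell types 13 had a row. The immune markers PTPRC, CD3E and CD14 and the stromal and endothelial markers DCN, ACTA2 and KDR were among those without a row. The summed level of the 13 was 473 to 583 CPM in control and 346 to 613 CPM in knockdown libraries, with LYZ and SOX9 the most counted. In this list PECAM1 rose (log2 fold change 1.02 ± 0.27, adjusted p = 0.0185) and KRT7, named because it was the only one to fall, fell (−1.54, adjusted p = 0.0266). Without control replicate 2 PECAM1 did not pass (adjusted p = 0.137), and 0 genes of this list fell. The part of these markers in the results below was not tested.

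Of the 53 tested members 18 rose in the knockdown, 0 fell and 35 did not pass, with edgeR's quasi-likelihood test thresholded at an adjusted p of 0.05. SKA2, among the 18, passed the filter on low counts only through the knockdown libraries. Over all tested transcripts 8.49% rose and 10.2% fell, 18.7% in either direction. At an unadjusted p under 0.05 there were 28 members, of which CENPN, NSL1 and NCAPG2 were lower, against 3893 of the 12337 transcripts. DESeq2 also called 0 members lower. The tested members had a median log2 fold change of 0.66, against 0.00 for all tested transcripts. Both knockdown libraries lay above both control libraries for 32 of the 53 members, against 29.3% of all tested transcripts, and below them for 3, against 30.3%. The 2 knockdown libraries were alike in this: the median log2 ratio of the members to the control mean was 0.69 in the first knockdown replicate and 0.66 in the other, against 0.01 and 0.00 over all tested transcripts. Summed over the tested members, the level was 2528 and 2527 CPM in the control libraries and 5519 and 4723 CPM in the knockdown libraries. In bulk RNA, more cells in mitosis and more RNA per cell cannot be told apart.

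**Figure D1:**
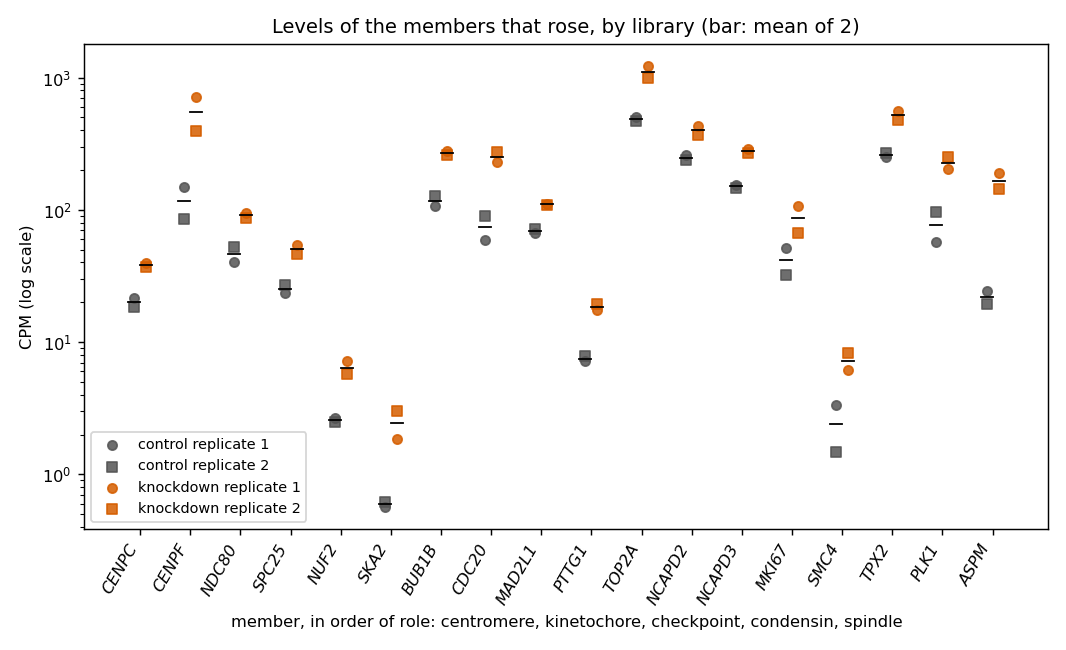
CPM (log scale) of the 18 members that rose in each of the 4 libraries. Circles are replicate 1, squares replicate 2, grey control, orange knockdown, and a bar is the mean of the 2 libraries of a group. Values run from SKA2 at 0.568 to 3.03 CPM up to TOP2A at 472 to 1224 CPM. For all 18 genes both knockdown libraries lie above both control libraries, as for 29.3% of all tested transcripts. The 18 were chosen by their rise in these same libraries, so that separation adds no support. SKA2 passed the filter on low counts only through the knockdown libraries.

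Of the 10 tested genes of the inner centromere 1 rose, a share near the 8.49% of all tested transcripts. CENPC, which links centromeric chromatin to the outer kinetochore, had 21.6 and 18.5 CPM in control and 39.7 and 36.9 CPM in knockdown libraries. Its log2 fold change was 0.93 ± 0.22 (SE, n = 2 per group, adjusted p = 0.0103), a call that did not survive leaving out control replicate 2 (0.84, adjusted p = 0.0799). The other 9 tested genes of this group did not pass. CENPT, the most highly counted of them and a second link to the NDC80 complex, had 1372 and 1623 counts in control against 1072 and 1842 in knockdown libraries (−0.07 ± 0.21, adjusted p = 0.863), so the groups overlapped. CENPA, the histone variant of the centromere, had 115 and 132 counts in control against 156 and 241 in knockdown libraries and did not pass (0.66 ± 0.30, adjusted p = 0.146). CENPH and CENPI, of the inner kinetochore complex with CENPK, had log2 fold changes of 0.35 ± 0.19 and 0.94 ± 0.35. CENPN, which binds the CENPA nucleosome, went the other way, with 37 and 25 counts in control against 2 and 10 in knockdown libraries (−2.39 ± 0.80, adjusted p = 0.0542). Its log2 fold change was −3.79 with knockdown replicate 2 left out (adjusted p = 0.0274) and −1.69 with knockdown replicate 1 left out (adjusted p = 0.252). This row passed the filter on low counts only through the control libraries, where it is higher, so its p supports nothing. The authors' deposited table gives it a q-value of 0.0258. CENPK, CENPU, CENPM and CENPQ had log2 fold changes between 0.01 and 0.83. With 1 library left out CENPU ran from 0.26 to 1.85 and CENPM from −1.16 to 0.69. CENPO was not tested because of its low counts, and CENPL had no row.

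At the outer kinetochore 5 of 15 tested genes rose (33.3%, against 8.49% of all tested transcripts), SKA2 among them. CENPF, a large protein that binds microtubules and dynein and is made mostly in G2 and M, had 149 and 86.0 CPM in control and 715 and 393 CPM in knockdown libraries. It rose 4.72-fold (log2 fold change 2.24 ± 0.29, adjusted p = 0.000192), and replicate 1 was the higher in both groups. In the NDC80 complex, the microtubule grip of the kinetochore, 3 of 4 genes rose. NDC80 had 40.6 and 52.2 CPM in control and 95.3 and 86.4 CPM in knockdown libraries (0.97 ± 0.20, adjusted p = 0.00414). SPC25 had 23.6 and 27.0 CPM in control and 54.3 and 46.3 CPM in knockdown libraries (0.99 ± 0.21, adjusted p = 0.00576). NUF2 had 42 and 40 counts in control against 108 and 98 in knockdown libraries (1.32 ± 0.38, adjusted p = 0.0266). The fold of these 3 genes was thus 1.96, 1.99 and 2.50, with standard errors that overlap. The fourth subunit, SPC24, had 20 and 20 counts in control against 27 and 13 in knockdown libraries (0.02 ± 0.68), on 1 row of a gene with 8 accessions, and ran from −0.68 to 0.52 with 1 library left out. NDC80 did not pass without control replicate 1 (0.80, adjusted p = 0.0541). NUF2 did not pass without control replicate 2 (1.29, adjusted p = 0.0624) or knockdown replicate 1 (1.19, adjusted p = 0.0925).

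The other kinetochore complexes did not move as a block. SKA2, of the SKA complex that tracks microtubule ends, had 9 and 10 counts in control against 28 and 52 in knockdown libraries (2.03 ± 0.64, adjusted p = 0.0416). This row passed the filter on low counts only through the knockdown libraries, and its call was lost under DESeq2 (adjusted p = 0.0547) and in 3 of the 4 fits that left out a library. With both of its rows summed SKA2 did not pass (1.13, adjusted p = 0.142). Because of that filter the p of its most counted row supports nothing. SKA1 and SKA3 did not pass (0.48 ± 0.51 and 0.35 ± 0.44). In the MIS12 complex, which joins the inner centromere to NDC80, 0 of 3 genes passed, and their rows held 8 to 79 counts in a library. NSL1 had 29 and 39 counts in control against 8 and 17 in knockdown libraries (−1.46 ± 0.64, adjusted p = 0.137), while DSN1 and MIS12 had log2 fold changes of 0.13 and −0.15, the latter running from −0.93 to 0.38 with 1 library left out. KNTC1 and ZW10, of the RZZ complex that recruits dynein and checkpoint proteins, were well counted. KNTC1 had 2300 and 2019 counts in control against 3299 and 2740 in knockdown libraries and did not pass (0.48 ± 0.19, adjusted p = 0.0932), though its groups did not overlap. It passed without knockdown replicate 2 (0.70, adjusted p = 0.00359) and stood at 0.28 (adjusted p = 0.369) without the other knockdown library. ZW10 had overlapping groups (0.18 ± 0.20). CENPE, a kinesin of the kinetochore, and ZWINT had few counts and did not pass, and ZWILCH had no row.

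Among the checkpoint and anaphase genes 4 of 7 tested rose (57.1%, against 8.49% of all tested transcripts). CDC20 had 59.0 and 89.6 CPM in control and 229 and 272 CPM in knockdown libraries, a 3.37-fold rise (1.75 ± 0.21, adjusted p = 0.00012). BUB1B, the checkpoint kinase BubR1 that holds CDC20, had 107 and 127 CPM in control and 279 and 259 CPM in knockdown libraries (1.21 ± 0.17, adjusted p = 0.000353). MAD2L1, the checkpoint protein MAD2, had 66.4 and 71.9 CPM in control and 112 and 109 CPM in knockdown libraries (0.68 ± 0.17, adjusted p = 0.0154). Transcripts of CDC20, BUB1B and MAD2L1 were higher in both knockdown libraries than in both control libraries, which adds no support to calls made from these libraries. PTTG1, securin, which blocks separase until anaphase, had 113 and 127 counts in control against 265 and 336 in knockdown libraries (1.31 ± 0.27, adjusted p = 0.00465). Separase itself, ESPL1, did not pass in spite of a high count, with 3680 and 3957 counts in control against 4572 and 5147 in knockdown libraries (0.34 ± 0.16, adjusted p = 0.157). BUB3 did not pass either (0.12 ± 0.19), and TTK, the kinase MPS1, had 16 and 63 counts in the control libraries (0.96 ± 0.53). TTK depended on the control library, with 2.26 (adjusted p = 0.00347) without control replicate 2 and 0.30 (adjusted p = 0.759) without control replicate 1. MAD2L1 did not pass without control replicate 1 (adjusted p = 0.146) or control replicate 2 (adjusted p = 0.0628). MAD1L1 was not tested because of its low counts, and BUB1 had no row.

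Of the 4 genes of the chromosome passenger complex 0 passed with edgeR and 0 with DESeq2, and 1 had an unadjusted p under 0.05. That gene was CDCA8, borealin, with 37 and 91 counts in control against 105 and 202 in knockdown libraries (1.23 ± 0.43, adjusted p = 0.062). It passed with control replicate 2 left out (2.02, adjusted p = 0.000846) and with knockdown replicate 1 left out (1.60, adjusted p = 0.0011). With control replicate 1 or knockdown replicate 2 left out it stood at 0.74 (adjusted p = 0.275) and 0.81 (adjusted p = 0.274). BIRC5, survivin, had 24 and 23 counts in control against 42 and 43 in knockdown libraries (0.84 ± 0.51, adjusted p = 0.283), so the groups did not overlap but the row was nearly empty. AURKB, the kinase of the complex, and its scaffold INCENP had log2 fold changes of 0.27 ± 0.37 and 0.30 ± 0.45. The other rows of AURKB ran from −0.44 to 1.14 and did not pass, nor did its 4 rows summed (0.29 ± 0.28, adjusted p = 0.51). The most counted rows of the 4 genes held 23 to 202 counts in a library, which limits the precision of their folds.

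**Figure D2:**
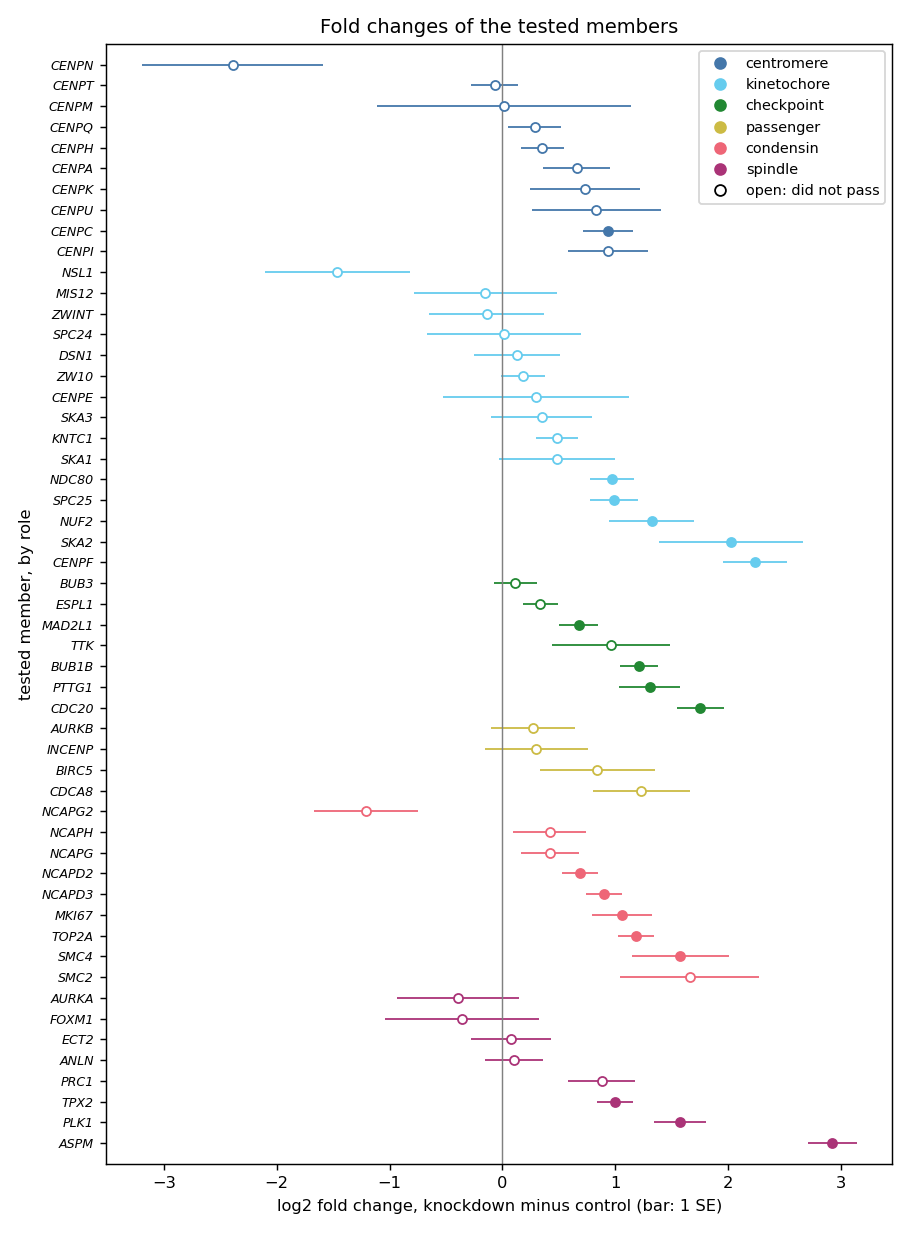
Log2 fold change (knockdown minus control) of the 53 tested members, sorted within each role, with bars of 1 SE. Filled points passed the threshold and open points did not. The filled points run from MAD2L1 at 0.68 to ASPM at 2.93, and the points left of 0 are all open.

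Of the genes of condensin and mitotic chromosome structure 5 of 9 rose (55.6%, against 8.49% of all tested transcripts). TOP2A, the topoisomerase II of dividing cells, had 505 and 472 CPM in control and 1224 and 1000.4 CPM in knockdown libraries (1.19 ± 0.16, adjusted p = 0.000286). MKI67, the Ki-67 antigen that coats mitotic chromosomes and serves as the usual marker of proliferation, had 51.3 and 31.9 CPM in control and 107 and 66.5 CPM in knockdown libraries (1.06 ± 0.26, adjusted p = 0.0132). The libraries of MKI67 differed within each group, replicate 1 being the higher in both, and the gene did not pass without control replicate 2 (0.78, adjusted p = 0.0633). The authors' deposited table gives MKI67 a q-value of 0.0824.

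Condensin I and condensin II share the ATPases SMC2 and SMC4 and differ in their other subunits. NCAPD2, of condensin I, had 258 and 238 CPM in control and 429 and 369 CPM in knockdown libraries (0.69 ± 0.16, adjusted p = 0.00987) but did not pass without control replicate 2 (0.65, adjusted p = 0.0758). NCAPD3, its counterpart in condensin II, had 155 and 146 CPM in control and 290.1 and 271 CPM in knockdown libraries (0.90 ± 0.16, adjusted p = 0.00193). NCAPG and NCAPH, the other condensin I subunits, did not pass (0.42 ± 0.26 and 0.42 ± 0.32), though both knockdown libraries lay above both control libraries. SMC4 had 53 and 24 counts in control against 93 and 142 in knockdown libraries (1.58 ± 0.43, adjusted p = 0.0221). It did not pass without control replicate 2 (1.13, adjusted p = 0.0941) or knockdown replicate 2 (1.36, adjusted p = 0.0609), and its log2 fold change was 2.28 when control replicate 1 was left out. The most counted row of SMC2 did not pass (1.66 ± 0.62, adjusted p = 0.0801), whereas the sum of its 3 rows, 28 and 29 counts in control against 89 and 79 in knockdown libraries, did (1.57, adjusted p = 0.0175). NCAPG2, of condensin II, had 62 and 83 counts in control against 39 and 23 in knockdown libraries (−1.21 ± 0.46, adjusted p = 0.0866). It passed as lower without knockdown replicate 1 (−1.71, adjusted p = 0.0303) and stood at −0.80 (adjusted p = 0.398) without the other knockdown library.

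Of the spindle and cytokinesis genes 3 of 8 tested rose (37.5%, against 8.49% of all tested transcripts). ASPM, which focuses microtubules at the spindle poles, had 24.4 and 19.4 CPM in control and 191 and 143 CPM in knockdown libraries. Its rise, 7.60-fold (log2 fold change 2.93 ± 0.21, adjusted p = 4.02e-06), was the largest among the tested members. PLK1, the polo-like kinase of mitotic entry and spindle assembly, had 57.0 and 95.9 CPM in control and 205 and 250.3 CPM in knockdown libraries (1.58 ± 0.23, adjusted p = 0.000478). TPX2, which activates AURKA and nucleates microtubules around chromosomes, had 252 and 269 CPM in control and 561 and 477 CPM in knockdown libraries (0.99 ± 0.16, adjusted p = 0.00103). PRC1, which bundles microtubules at the midzone, had 120 and 103 counts in control against 168 and 250 in knockdown libraries and did not pass (0.88 ± 0.30, adjusted p = 0.0562). It passed without knockdown replicate 1 (1.10, adjusted p = 0.0174) and stood at 0.68 (adjusted p = 0.265) without the other knockdown library. ANLN, an actin-binding protein of the cleavage furrow, had overlapping groups (0.10 ± 0.26). AURKA, the spindle pole kinase, and FOXM1, a transcription factor of mitotic genes, had rows of 20 to 47 and 13 to 34 counts in a library, of genes with 13 and 24 RefSeq mRNA accessions. Their log2 fold changes were −0.39 ± 0.54 and −0.36 ± 0.68, and with 1 library left out they ran from −1.15 to 0.14 and from −0.88 to 0.52, so they have no settled sign. NUSAP1 and CENPJ had no row.

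How well a member was counted went with whether it passed. Counts were given per RefSeq mRNA accession, and how reads shared by several accessions were counted is not stated. Of the 24 members with a mean of at least 10 CPM 15 rose (62.5%), where 13.7% of all tested transcripts at that level rose. The mean covers all 4 libraries, so a rise itself lifts a gene in this split. PTTG1, among the 15, had means of 7.49 CPM in control and 18.5 CPM in knockdown libraries. Of the 29 tested members under 10 CPM 3 rose, namely NUF2, SKA2 and SMC4, where 3.94% of all tested transcripts under 10 CPM rose. Among these SKA2 was tested only through the knockdown libraries. Of the 18 members with 1 RefSeq mRNA accession 10 rose (55.6%, against 11.8% of all such transcripts), with a median log2 fold change of 0.76. Of the 35 tested members with more accessions 8 rose, against 6.65%. In the plot of fold change against level the members at the left are spread on both sides of 0 and those at the right lie above it except CENPT (−0.07).

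**Figure D3:**
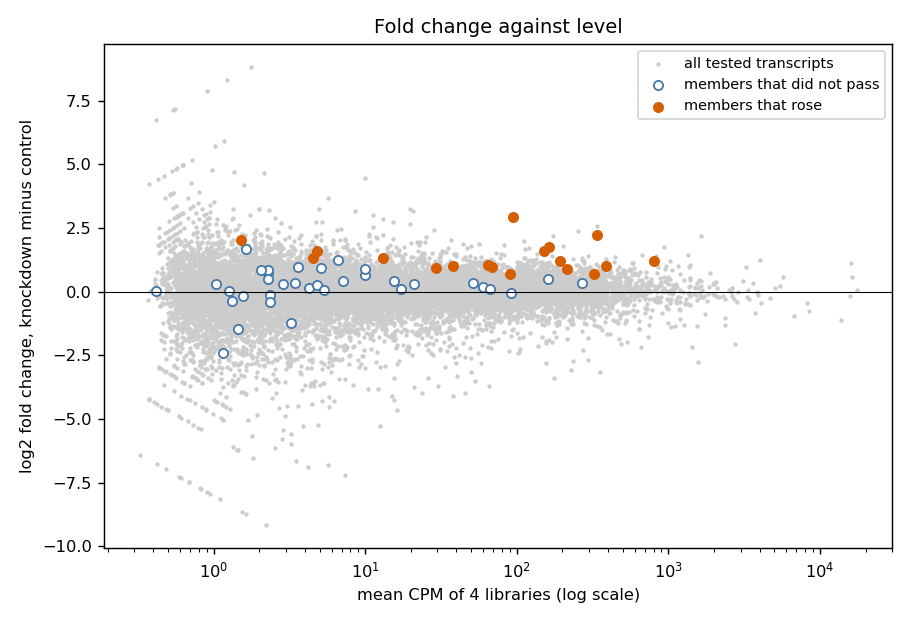
Log2 fold change (knockdown minus control) against the mean CPM of the 4 libraries (log scale). Grey points are the 12337 tested transcripts, open points the 35 members that did not pass and orange points the 18 that rose. Above 10 CPM 23 of the 24 members have a positive log2 fold change.

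Rows of the same gene could differ. For 11 members the table held a second or further row, 14 in all, and 2 of these other rows rose, named here after their values were seen. The further rows of CENPE, CENPN and DSN1 had too few counts to be tested. Among all tested transcripts 8.49% rose. The most counted ECT2 row, of the exchange factor that starts cytokinesis, had 94 and 72 counts in control against 93 and 83 in knockdown libraries (0.08 ± 0.36). The other ECT2 row had 36 and 18 counts in control against 117 and 133 in knockdown libraries (2.19 ± 0.42, adjusted p = 0.0031). Summed, ECT2 had 130 and 90 counts in control against 210 and 216 in knockdown libraries and passed (0.95 ± 0.30, adjusted p = 0.0377). The other row that rose, of SMC2, had 2 and 9 counts in control against 35 and 30 in knockdown libraries (2.54 ± 0.80, adjusted p = 0.0409). It passed the filter on low counts only through the knockdown libraries, so its p supports nothing. ECT2 has 14 RefSeq mRNA accessions in the RefSeq table, so neither row stands for the gene.

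Within the groups the direction of the gap between replicates differed among genes, given here for genes picked after their values were seen. The summed level of the tested members also differed between the knockdown libraries (5519 CPM in replicate 1 and 4723 CPM in replicate 2). CENPF and MKI67 were higher in replicate 1 of both groups, and CDC20 and PLK1 were higher in replicate 2 of both groups. In knockdown replicate 1 CENPF stood at 715 CPM and in knockdown replicate 2 at 393 CPM, a wider gap than for BUB1B at 279 and 259 CPM. Of the 18 members that rose, 10 kept their call without each of the 4 libraries in turn and under each other alternative that was run. They were CENPF, SPC25, BUB1B, CDC20, PTTG1, TOP2A, NCAPD3, TPX2, PLK1 and ASPM.

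**Figure D4:**
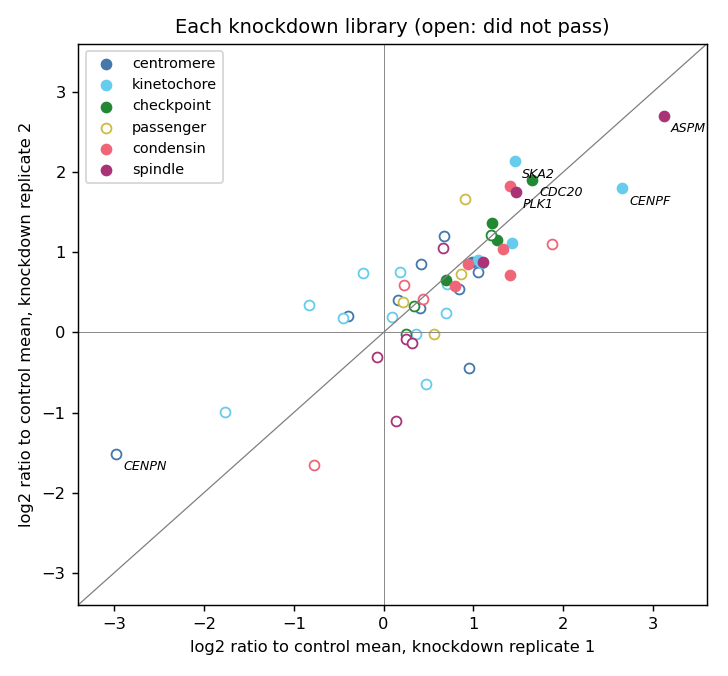
Log2 ratio of each tested member to the control mean in knockdown replicate 1 (horizontal) and knockdown replicate 2 (vertical), coloured by role, with a line of equal values. Filled points rose and open points did not pass. The filled points, chosen by their rise in these libraries, lie in the upper right, ASPM farthest. CENPF lies below the line, with its higher value in knockdown replicate 1.

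The authors' deposited table gave 23 of the 55 members with a row a q-value under 0.05 and a positive log2 fold change, where 10.7% of all rows did, and 1 had a negative one, where 11.4% did. Of the 23, 17 also rose here. The other 6 were CENPI, KNTC1, ESPL1, CDCA8, SMC2 and PRC1, none of which passed here. MKI67 rose here only, and CENPN was lower in the authors' deposited table only.

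Other genes of mitosis and the cell cycle, from lists of textbook members, moved in part, and their counts stand against 8.49% higher and 10.2% lower among all tested transcripts. Of 21 tested further centromere and kinetochore genes 4 rose and 0 fell, with a median log2 fold change of 0.22 (the unadjusted p was under 0.05 for 5, and DESeq2 also called 0 lower). KIF18A, a kinesin that trims kinetochore microtubules, rose from 16.3 ± 3.07 to 35.4 ± 1.95 CPM (mean ± SD, n = 2, log2 fold change 1.12, adjusted p = 0.00539 in edgeR), and CENPV from 84.7 ± 2.55 to 151 ± 26.9 CPM (0.83, adjusted p = 0.00649). Without control replicate 1 only 1 of the 4 was called, and KIF18A was not (adjusted p = 0.0524). Of 13 cohesin genes 3 rose and 1 fell, with a median of 0.47. The cohesin subunits STAG1 and SMC3 rose (1.01 and 0.82), and ESCO1, which acetylates cohesin, fell (−0.62, adjusted p = 0.043), a call lost in 3 of the 4 fits without a library. SMC3 lost its call without control replicate 2. Of 15 genes of the anaphase-promoting complex, the target of the checkpoint, 3 rose and 0 fell, with a median of 0.28 (unadjusted p under 0.05 for 4, and 0 lower with DESeq2). ANAPC1, its scaffold, rose from 225 ± 14.4 to 356 ± 38.5 CPM (0.66, adjusted p = 0.0122), not without control replicate 2. Of 32 spindle pole, centriole and cytokinesis genes 6 rose and 0 fell, with a median of 0.37 (unadjusted p under 0.05 for 9, and 0 lower with DESeq2), and without control replicate 1 the number that rose was 2. TROAP, a microtubule-associated protein, rose by 1.33 and the microtubule polymerase CKAP5 by 0.88, the latter call being lost without control replicate 1 and without control replicate 2.

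Of 32 tested S phase genes 9 rose and 1 fell (median 0.60), and 5 rose without control replicate 1. The replication licensing gene MCM5 rose from 117 ± 33.0 to 281 ± 52.1 CPM (1.26, adjusted p = 0.00125), the DNA glycosylase UNG rose by 1.40, and CCNE2, a cyclin of S phase entry, fell (−1.15, adjusted p = 0.00313). Of 25 tested regulators of mitotic transcription and entry 4 rose and 2 fell, with a median of 0.12, so the share that fell was no higher than among all tested transcripts. CCNB1 and CCNB2, the B cyclins that drive mitotic entry, rose from 176 ± 34.3 to 381 ± 12.1 CPM (1.12, adjusted p = 0.000841) and from 57.5 ± 9.67 to 112 ± 15.3 CPM (0.96, adjusted p = 0.00427). E2F7, a repressor of cell cycle genes, fell from 86.7 ± 16.9 to 44.0 ± 3.55 CPM (−0.98, adjusted p = 0.00464), and so did RB1, the retinoblastoma protein that restrains E2F factors, from 88.8 ± 12.4 to 54.4 ± 10.5 CPM (−0.71, adjusted p = 0.0269). The call of E2F7 was lost without control replicate 2, and that of RB1 without control replicate 1 and without knockdown replicate 2. Whether the members differ from these lists was not tested.

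**Figure D5:**
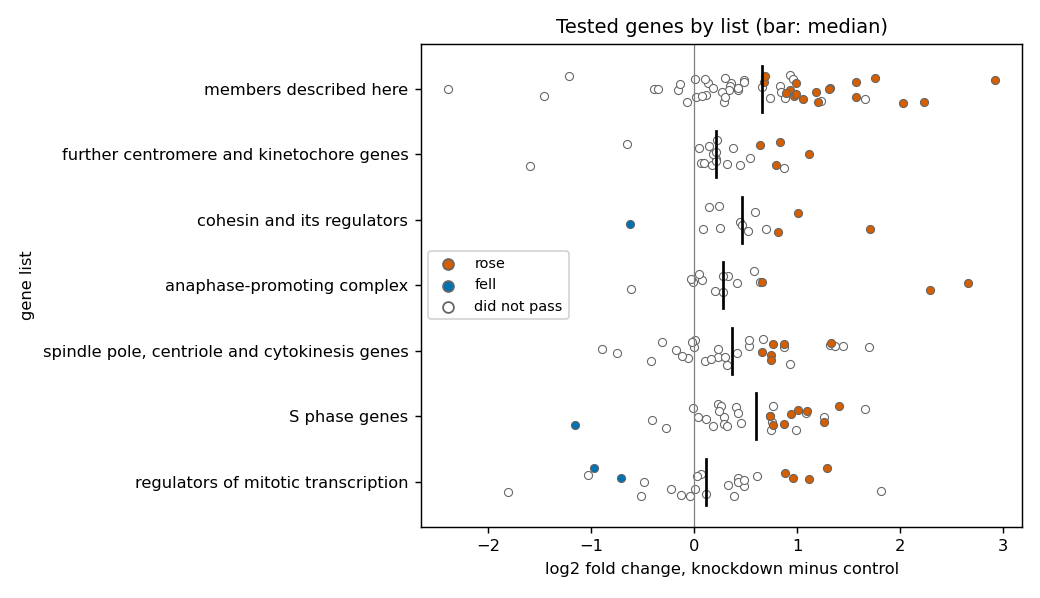
Log2 fold change (knockdown minus control) of each tested gene of the members and of the 6 other lists of mitotic and cell cycle genes, with a bar at the median. Orange genes rose, blue genes fell and open ones did not pass. The medians run from 0.12 for the regulators of mitotic transcription to 0.66 for the members. The marker lists are not drawn, and the hepatocyte markers had a median of 0.78.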

How the data were processed

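Per the labels' protocols, Trizol RNA was enriched for mRNA and made into libraries by a NEBNext Ultra RNA kit, which does not mark strand, so reads of overlapping antisense genes cannot be told apart. The authors deposited raw read counts per RefSeq mRNA accession for the 4 libraries. HISAT2 2.1.0, HTSeq, bcl2fastq and the build hg19 are named in the submitters' processing notes, without counting settings. The authors' deposited table also holds their log2 fold changes, p-values and q-values, for which no tool is named.

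Each member was read from its gene symbol, on the accession with the highest summed count. Rows were kept by filterByExpr of edgeR 4.0.16 (R 4.3.3) with a minimum count of 10, which removed 2203 of 14540, and normalized by TMM. Knockdown was tested against control with edgeR's quasi-likelihood test without covariates, adjusted by Benjamini-Hochberg over the 12337 tested transcripts at 0.05. The SE is the log2 fold change divided by the square root of F. The common biological coefficient of variation was 22.1%. Within groups the counts varied beyond sampling noise (chi-square per degree of freedom 19.7 in control and 37.6 in knockdown). The fit was tested on simulated counts with the same spread for every transcript. It called 33 of 100 transcripts changed 2-fold and 99 of 100 changed 4-fold, each in the right direction. These shares were not split by count level, so they do not carry over to members with few counts. Of the calls 5.71% were false. A member that did not pass is thus not shown to be unchanged. The members and lists were chosen with earlier results of these data known. Every member could be named. Of other lists, the 2 called genes with the largest change in each direction and a mean of at least 10 CPM were named. Accession numbers per gene came from a RefSeq table (GRCh38.p14) that matched 98.5% of the rows. Alternatives used DESeq2 1.42.0, limma 3.58.1, other filters and scalings, a replicate block, each library left out and rows summed per gene.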

Additional observations from a re-analysis of the deposited data

How the results depend on the processing

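The 18 members that rose numbered 12 to 23 over the alternatives fixed for all members, 18 with DESeq2 size factors, 17 with DESeq2, 18 with limma-voom and 21 with rows summed per gene. The count among members with 1 RefSeq mRNA accession, a choice made after seeing the data, was 10 of 18. The median of the members stayed between 0.58 and 0.88, and USP22 between −2.93 and −2.58. No direction of a called value reversed.

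At an adjusted p under 0.01, 433 of the 12337 tested transcripts rose and 686 fell. Of the members 0 of 10 at the centromere, 3 of 15 at the kinetochore and 3 of 9 of condensin then rose. In the other lists 2 centromere and kinetochore genes, 0 of the anaphase-promoting complex, 2 spindle pole genes, 5 S phase genes and 0 markers of other cell types rose, and 0 cohesin genes, 1 regulator of mitotic transcription and 0 markers of other cell types fell. With no filter beyond 1 count 0 cohesin genes and 2 markers of other cell types fell. With at least 5 CPM in 2 libraries 1 of 2 passenger genes and 1 of 13 genes of the anaphase-promoting complex rose. Beside them 1020 of 7232 transcripts rose. With limma-voom 1 of 4 and 1 of 15 rose, beside 1039 of 12337 transcripts. With rows summed per gene 1 of 4 passenger genes and 5 of 8 spindle genes rose, beside 1078 of all 10831 tested.

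Same-numbered libraries are not said to share a culture. Their deviations from the group means correlated at 0.11 over all tested transcripts and 0.38 over the members, which does not establish pairs. In a fit with a replicate block 23 of 53 members rose and 2 fell (CENPN and NCAPG2). Of the 12337 tested transcripts 1672 rose and 1859 fell. CENPN passed the filter on low counts only through the control libraries and SKA2 only through the knockdown libraries, so their p supports nothing. In that block fit 2 of 10 centromere genes, 1 of 4 passenger genes and 6 of 13 cohesin genes rose. So did 5 of 15 genes of the anaphase-promoting complex and 7 of 25 regulators of mitotic transcription. Of hepatocyte markers 2 of 18 fell, and of markers of other cell types 2 of 11.

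Leaving out 1 library at a time leaves an arm with 1 library, assumed to vary like the other. Then 13 to 19 members rose and 0 to 1 fell, and 685 to 1340 transcripts rose. By role 0 to 1 centromere, 3 to 5 kinetochore, 0 to 1 passenger and 2 to 5 condensin genes rose. In the other lists 1 to 4 centromere and kinetochore, 1 to 6 cohesin, 1 to 2 anaphase-promoting complex, 2 to 7 spindle pole and 5 to 10 S phase genes rose, as did 0 to 2 markers of other cell types. Those that fell were 0 to 1 cohesin genes, 1 to 2 regulators of mitotic transcription, 0 to 2 hepatocyte markers and 0 to 4 markers of other cell types. The lowest and highest of these values come from single libraries, and the cause was not tested. Rows of few counts limit what can be said of the passenger, MIS12 and SKA genes.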
